A study of Saccharomyces cerevisiae with 6 samples.

Results

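Domain VI is the 3'-most domain of 25S, the large ribosomal RNA of the yeast large subunit, and carries the sarcin-ricin loop. It was taken as the 348 nucleotides from 2996 to 3343 of 25S (6247 to 6594 of the 35S transcript), a choice by position that used no reactivity. The 35S transcript has 6858 nucleotides in all. Its particles were purified from Saccharomyces cerevisiae through TAP-tagged Mrd1, a protein of early pre-ribosomes, and probed with 1M7, a reagent that marks flexible nucleotides. All strains were BY4741 derivatives grown at 30 °C in glucose or in galactose with raffinose. The medium of each single library is not stated in the labels. The strain called the mutant below carried mrd1-deltaRDB5-TAP::K.I.TRP1 with pGAL-HA-MRD1::URA3, an intact MRD1 behind a galactose promoter. It had 2 libraries with the solvent DMSO and 2 with 1M7. The other strain, here Erb1-depleted cells, carried GAL::3HA-ERB1::KAN with MRD1-TAP::URA3 and had 2 libraries with 1M7 and none labelled DMSO. No strain was without both changes, so loss of the Mrd1 domain and loss of Erb1 cannot be told apart.

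The sarcin-ricin loop is among the most conserved stretches of ribosomal RNA. In the finished ribosome it lies at the site where translation factors bind and helps to trigger their hydrolysis of GTP. The toxin ricin removes the base of 1 adenosine at its tip, and sarcin cuts the backbone nearby. Erb1 is an assembly factor of the large subunit, whereas Mrd1 is needed for the small one. Transcription reaches domain VI after nearly all the rest of the transcript, so only nearly complete transcripts hold it.

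The sequences below come from the deposited sheet and are written 5' to 3' with 25S positions. The sarcin-ricin loop was located by the first 8 bases of its conserved core (3021 to 3028), which occur at 1 place in the transcript. The first sequence is this loop with its stem (3012 to 3042), shown for its difference between the strains, and its capitals mark the nucleotides called different by the difference rule given with that comparison, modified or not. In the second (3066 to 3081) and the fourth (3172 to 3198), capitals mark nucleotides modified (posterior probability of at least 0.95) in both strains, since these hold the longest runs of such nucleotides. In the third (3048 to 3060) capitals mark nucleotides modified in the mutant alone. The last (3246 to 3300) adjoins the end of coverage, and its capitals mark nucleotides called higher in the mutant, modified or not.
sarcin-ricin loop: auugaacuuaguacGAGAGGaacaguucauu
long run: ucUGAUCAggcAUUgc
uridine-rich stretch: aaUUgguUuUUgc
reactive stretch: AgaUggauAcgAAUAAggcguccUUgU
3' stretch: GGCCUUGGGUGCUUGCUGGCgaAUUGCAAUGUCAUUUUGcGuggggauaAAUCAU

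Each strain had 1 deposited value per nucleotide, with its libraries pooled, and the depth behind it is unknown. Replicate spread is thus unknown for every difference below, and no test was made. Raw reactivity, a score with a mean of 0 over the transcript, was given in both strains for 307 of the 348 nucleotides of domain VI, against 6542 of 6858 in the transcript. Every nucleotide from 2996 to 3284 was measured in both. From 3285 the values were broken, with 18 of 59 nucleotides measured in both strains up to G3343, the last one. The 41 nucleotides without a pair of values comprised 31 missing in the mutant and 37 in Erb1-depleted cells, with 27 missing in both. The remaining 53 nucleotides of 25S, which is 3396 nucleotides long, had no reactivity in either strain. Normalized reactivity is the authors' raw score multiplied by a factor (5.21 in the mutant, 4.35 in Erb1-depleted cells) and floored at 0.

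The first comparison asked where 1M7 marked domain VI. Modified nucleotides, those with a BUM_HMM posterior probability of modification of at least 0.95, lay in the first 250 nucleotides of the domain, with 1 exception in the mutant. The mutant had 56 among 347 with a posterior (16.1%), against 18.5% over the transcript and 19.6% in the rest of 25S. Erb1-depleted cells had 48 among 337 (14.2%), against 21.1% over the transcript and 21.9% in the rest of 25S. Over all nucleotides with a posterior, the share in the mutant lay near that of the transcript and in Erb1-depleted cells it was lower. The first 250 nucleotides held 55 of the 56 in the mutant and all 48 in Erb1-depleted cells. Both shares thus also count the later nucleotides toward the end of coverage, which added almost no modified ones. The strains shared 39 modified nucleotides, 69.6% of the mutant's and 81.3% of the other strain's. Over the transcript these shares ran the other way round, at 80.9% and 71.1%.

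Along blocks of 50 nucleotides the modified ones were unevenly spread. The first block, which holds the sarcin-ricin loop, had 2 in the mutant and 4 in Erb1-depleted cells. The second had 16 and 9, the third 6 and 7, the fourth 15 and 15, and the fifth 16 and 13. The sixth block (3246 to 3295) had 0 in both strains although 46 of its nucleotides were measured in both. The seventh, of 48 nucleotides with 11 measured in both, had 1 in the mutant and 0 in the other. This 1 nucleotide, U3301, had a posterior of 0.9903 in the mutant but no raw reactivity there. Its posterior does not rest on a reactivity that could be shown.

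**Figure D1:**
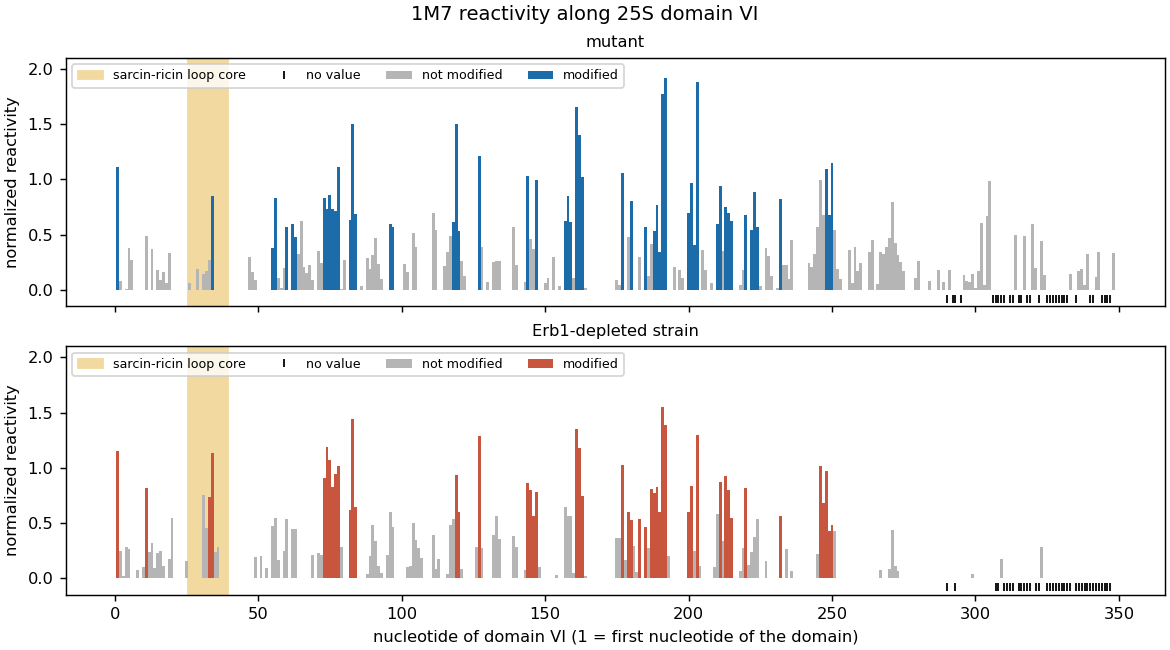
Normalized reactivity of each nucleotide of domain VI in the mutant (top) and Erb1-depleted cells (bottom), with modified nucleotides in colour, the 14 core nucleotides of the sarcin-ricin loop shaded and ticks where no value was given. Modified nucleotides with a reactivity stop at nucleotide 250 of the domain (A3245). Beyond it most values of Erb1-depleted cells are 0, with exceptions up to 0.437 at G3266.

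**Figure D2:**
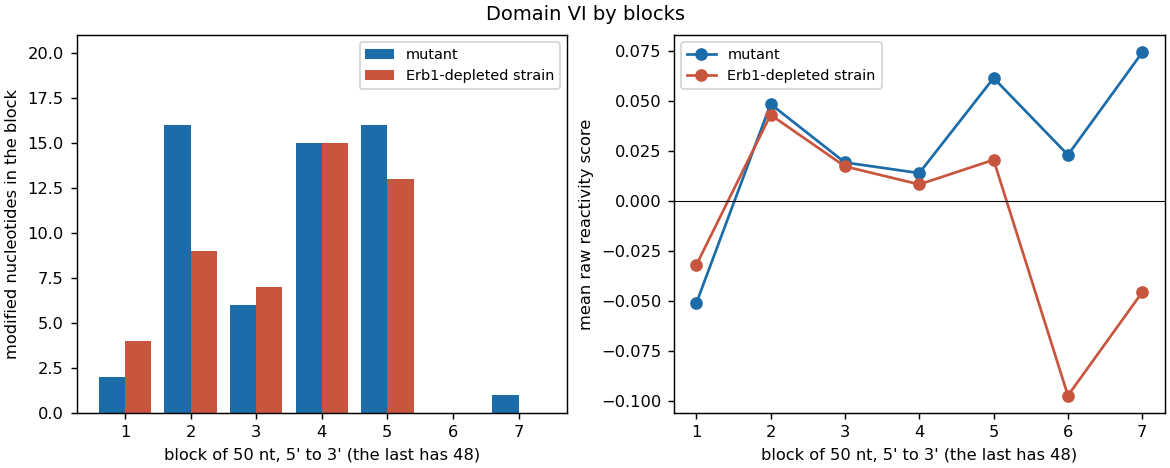
Modified nucleotides (left, bars) and mean raw reactivity score (right, points) in 7 blocks of domain VI from the 5' to the 3' end, for the mutant and Erb1-depleted cells. Modified counts differ most in block 2 (16 and 9), whereas mean raw scores run close together through block 4 and part in blocks 6 and 7, at 0.023 and 0.075 in the mutant and −0.097 and −0.046 in Erb1-depleted cells.

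The most reactive nucleotides were shared. A3187 had the highest normalized reactivity of the mutant in the domain, 1.92, with 1.39 in Erb1-depleted cells. Its neighbour A3186, with 1.78 in the mutant, was the highest of Erb1-depleted cells at 1.55. Both end the run of 5 nucleotides 3183 to 3187, modified in both strains, in the reactive stretch printed above. U3198, at the end of the same stretch, had normalized values of 1.89 and 1.30 in the mutant and Erb1-depleted cells. All 3 were higher in the mutant on the normalized scale, A3186 was lower there on the raw scale (0.341 and 0.355), and none was called different on raw scores. On normalized values with negatives at 0 U3198 was called higher in the mutant.

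U3156 followed with normalized values of 1.66 in the mutant and 1.35 in Erb1-depleted cells, and its neighbour U3157 had 1.40 and 1.18. A3114 had 1.50 and 0.933, U3078 had 1.50 and 1.44, A3122 had 1.22 and 1.29, A3245 had 1.15 and 0.484, and A3073 had 1.12 and 1.02. Among these top 10 of the mutant, 10 were modified in Erb1-depleted cells too, and 7 were among the 10 most reactive of both strains. They were chosen for high values in the mutant, and 9 were higher there on the normalized scale but 5 on the raw scale. The other 3 of Erb1-depleted cells were G3069 (0.734 in the mutant and 1.19 in Erb1-depleted cells), U2996 (1.11 and 1.15) and A3029 of the sarcin-ricin loop (0.849 and 1.13).

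The longest run modified in both strains was U3068 to A3073, 6 adjacent nucleotides in the long run printed above. Normalized reactivities along it lay between 0.715 and 1.12 in the mutant and between 0.822 and 1.19 in Erb1-depleted cells. After 3 nucleotides modified in neither strain (0.00939, 0.270 and 0 in the mutant at G3074, G3075 and C3076) came a run of 3, A3077, U3078 and U3079. The 39 shared nucleotides fell into 20 runs, with a median normalized value of 0.849 in the mutant and 0.865 in Erb1-depleted cells.

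Nucleotides modified in 1 strain alone were chosen by their posteriors, so their values are a description. Of the 17 modified in the mutant alone, 5 lay in the uridine-rich stretch: U3050, U3051, U3055, U3057 and U3058. Their normalized reactivities in the mutant and Erb1-depleted cells were 0.384 and 0.468 at U3050, 0.833 and 0.548 at U3051 and 0.571 and 0.535 at U3055. They were 0.594 and 0.442 at U3057 and 0.480 and 0.447 at U3058. At U3050 the normalized value was lower in the mutant, and at the other 4 it was higher there. On raw scores U3055 (0.110 in the mutant and 0.123 in Erb1-depleted cells) and U3058 (0.0920 and 0.103) were lower in the mutant as well. The other 12 were A3091, C3092, A3113, U3152, U3153, C3154, G3197, G3205, C3217, A3218, G3219 and U3301. Over the 16 with a reactivity the median normalized value was 0.593 in the mutant and 0.534 in Erb1-depleted cells, with 13 higher in the mutant, and none of the 17 was called different.

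The 9 modified in Erb1-depleted cells alone were A3006, G3028, G3140, A3141, A3174, A3178, G3182, G3241 and G3242. By the same kind of choice, 9 of 9 had the higher normalized reactivity in that strain, with medians of 0.461 in the mutant and 0.738 in Erb1-depleted cells. As reported 1 (G3028) was called different. After removal of the running median A3178, G3182, G3241 and G3242 were called too. At G3241 and G3242 that median took in much of the positive 3' stretch, so these calls cannot be told from its subtraction. G3241 and G3242 had nearly equal normalized reactivities in the strains (0.998 and 1.01, 0.677 and 0.681). The 5 largest gaps in posterior were at A3218, G3197, A3113 and C3217, above 0.999 in the mutant and near 0 in Erb1-depleted cells, and at G3028, the other way round. A3218 had normalized values of 0.885 in the mutant and 0.375 in Erb1-depleted cells, G3197 had 0.408 and 0.242, A3113 had 0.611 and 0.537, and C3217 had 0.545 and 0.234.

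By base, adenosines were modified most often. In the mutant 27.6% of the A, 20.8% of the U, 6.32% of the G and 8.70% of the C of domain VI were modified, against 34.7%, 18.1%, 10.9% and 6.63% over the transcript. In Erb1-depleted cells 30.5%, 12.5%, 8.70% and 4.48% were modified, against 38.2%, 19.6%, 16.4% and 5.69%. Adenosines were 25.3% of the sequence of the domain, 42.9% of its modified nucleotides in the mutant and 52.1% in Erb1-depleted cells.

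Reactivity was also set beside a secondary structure predicted from the sequence of the domain alone with RNAfold, which used none of the scores. The predicted fold is not the known structure of 25S and leaves out any pairing with the rest of the transcript. The 118 nucleotides predicted unpaired had, where measured in both strains, a mean normalized reactivity of 0.476 in the mutant and 0.435 in Erb1-depleted cells. The 206 measured of the 230 predicted paired had means of 0.172 and 0.116. In the mutant 32.5% of the unpaired and 7.83% of the paired nucleotides were modified, and in Erb1-depleted cells 34.2% and 4.42%. Of the 39 nucleotides modified in both strains 30 were predicted unpaired. Among the most reactive ones, U3156, U3157 and A3073 were predicted paired.

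**Figure D3:**
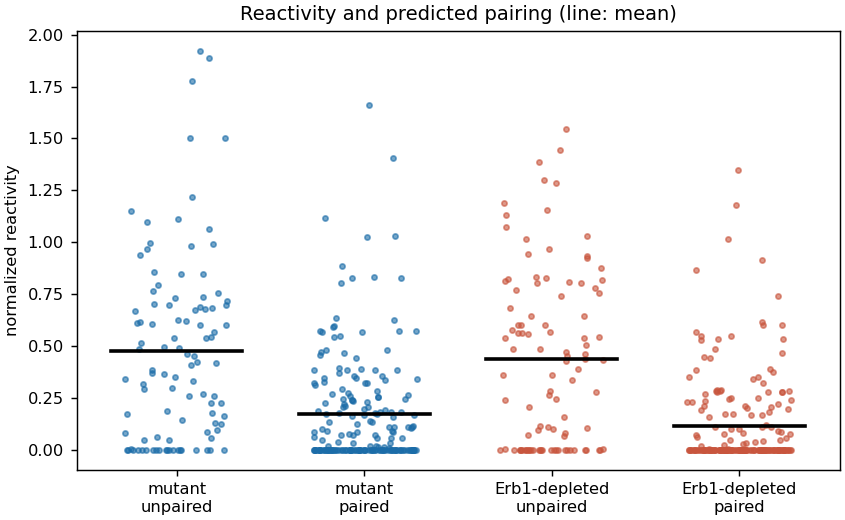
Normalized reactivity of single nucleotides of domain VI (points) predicted unpaired or paired from the sequence, in each strain, with the mean as a line. The means were 0.476 and 0.172 in the mutant and 0.435 and 0.116 in Erb1-depleted cells, and the points overlap, with many paired and some unpaired nucleotides at 0.

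The next comparison asked where the strains differed. The standardized difference is the raw score of the mutant minus that of Erb1-depleted cells, smoothed over 3 nucleotides, less its mean and divided by its SD over the transcript. A nucleotide was called where this value reached 1 in size, did so at 3 or more of 5 neighbouring nucleotides, and had a deposited Z-factor above 0, which in deltaSHAPE sets a difference against measurement error. Of the 307 measured nucleotides, 0 were modified in at least 1 strain and called higher in the mutant, against 0.81% over the transcript. In the other direction 5 were modified and called higher in Erb1-depleted cells (1.63%), against 5.15% over the transcript and 5.28% in the rest of 25S. The 5 lay in 2 places, the tip of the sarcin-ricin loop (G3028 and A3029) and the long run (G3069, A3070 and U3071). On the raw scale both shares lay below those of the transcript. On 4 other scales 3 to 10 nucleotides of the domain were modified and called higher in the mutant, with 2 called the other way. On raw scores the 5 higher in Erb1-depleted cells became 20 after a running median was removed. Shares of the transcript on those scales were not computed.

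Without the filter on modified nucleotides, 71 nucleotides were called higher in the mutant (23.1%, against 13.7% over the transcript and 12.9% in the rest of 25S). In the other direction 9 were called (2.93%, against 11.5% and 12.9%). After a running median was removed the balance turned, with 29 higher in the mutant and 37 higher in Erb1-depleted cells. That median subtracts a difference shared along a stretch, so a loss of calls between 3246 and 3300 was built in. Without the last 50 measured nucleotides the 71 became 34. The 71 fell into 10 runs and 44 of them lay between 3246 and 3300. The 9 lay in the same 2 places as before, as a run of 6 in the sarcin-ricin loop and a run of 3 in the long run. Pearson's r between the strains' raw scores was 0.835 over the 307 nucleotides, against 0.868 over the 6542 of the transcript. Neighbouring nucleotides share reads, and the strains may share control libraries, so these are descriptions.

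**Figure D4:**
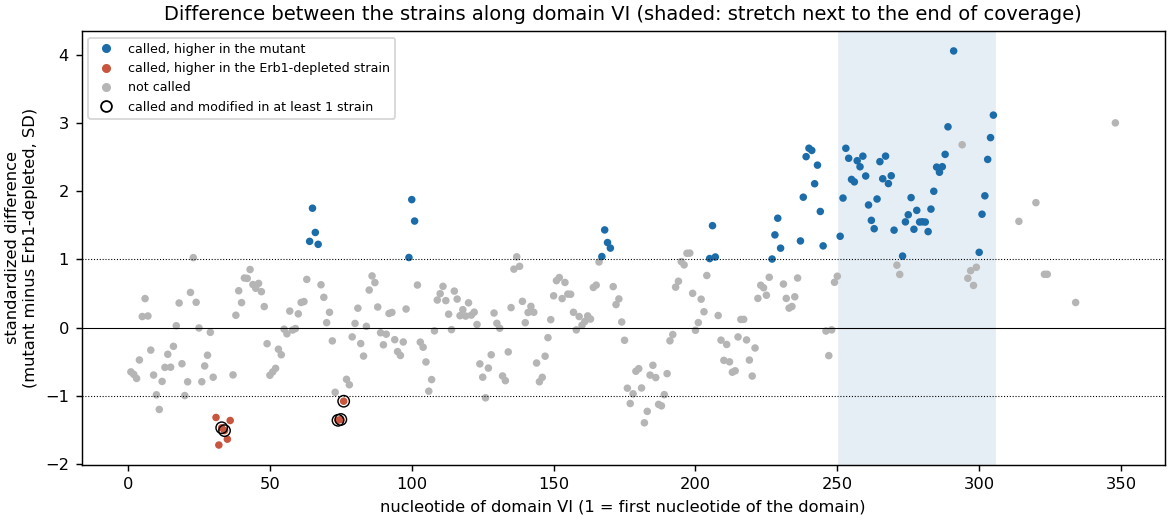
Standardized difference (mutant minus Erb1-depleted, in SD over the transcript) at each nucleotide of domain VI measured in both strains. Called nucleotides are coloured, those also modified in at least 1 strain are ringed, dotted lines mark −1 and 1, and the shaded stretch is 3246 to 3300, where every measured nucleotide lies above 0.

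The core of the sarcin-ricin loop was most reactive at its tip, in the mutant mainly at A3029. The tip was more reactive in Erb1-depleted cells. The 14 core nucleotides of the loop run from A3021 to C3034. Its tip is taken here as the 6 nucleotides G3026 to G3031, of which the first 4 form the 4-base loop of the mature structure. In the mutant and Erb1-depleted cells respectively, the normalized value was 0.142 and 0.755 at G3026. It was 0.173 and 0.450 at A3027, the adenosine that ricin attacks, and 0.267 and 0.738 at G3028, next to which sarcin cuts. A3029 had 0.849 and 1.13 and was the highest of the loop in both strains. All 4 were higher in Erb1-depleted cells, and of these A3029 alone was modified in both.

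G3030 and G3031, the rest of the tip, had a normalized reactivity of 0 in the mutant and 0.238 and 0.285 in Erb1-depleted cells. These 6 adjacent nucleotides were all called, with standardized differences from −1.31 at G3026 to −1.72 at A3027, the lowest of domain VI. Only G3028 and A3029 passed the filter on modified nucleotides. Posteriors at G3026 and A3027 were near 0 in both strains although G3026 was about as reactive as G3028 in Erb1-depleted cells. The standardized difference at A3027 draws on its neighbours through smoothing, and unsmoothed it was −0.94, with −1.45 as the mean over the 6 nucleotides.

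The rest of the core stayed low in both strains. Of the 14 core nucleotides 8 had a normalized reactivity of 0 in the mutant and 8 in Erb1-depleted cells. G3022, the bulged guanosine of the mature loop, had 0 in both, as had U3023, C3025, A3032, A3033 and C3034. A3024 had 0.185 in the mutant and 0 in Erb1-depleted cells, and A3021 had 0.0576 and 0. With the stem, 31 nucleotides from 3012 to 3042, the values at 0 numbered 21 and 20. On the 5' side of the stem G3015 had 0 in the mutant and 0.548 in Erb1-depleted cells, without being called. On the 3' side A3035 to U3041 were at 0 in both strains, and U3042, the last, had 0.299 in the mutant and 0.00204 in Erb1-depleted cells.

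The mean standardized difference of the 14 core nucleotides was −0.82, with 12 negative and 2 positive, while that of the 31 with the stem was −0.21, with 16 negative and 15 positive. Outside the core, most of the stem was positive. The predicted fold placed the stem at 3014 to 3019 and left the 4-base loop and G3030 unpaired, with G3031 paired to C3025. Of the 6 nucleotides called at the tip, 6 were called on each strain's own normalization factor, 6 at equal SD, 6 after quantile normalization, 6 with a running median taken out and 5 on normalized values with negatives at 0. At a threshold of 2 none was called. Calls on every scale kept the deposited Z-factor, so that part of the rule could not change between them.

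**Figure D5:**
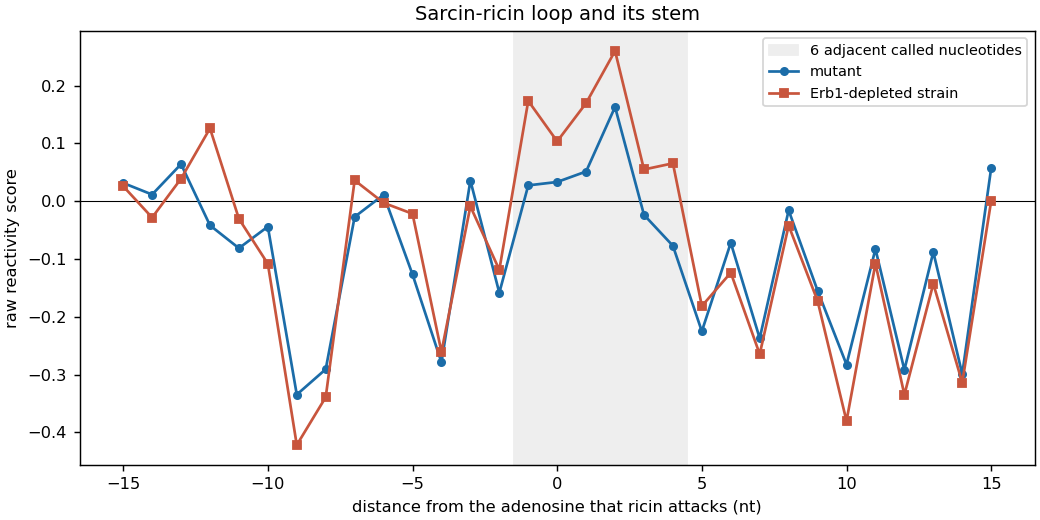
Raw reactivity score of the 31 nucleotides of the sarcin-ricin loop and its stem in the mutant and Erb1-depleted cells, against the distance from A3027, with the 6 called nucleotides shaded. In the shaded tip every value of Erb1-depleted cells lies above that of the mutant, and the widest single gap is at G3015 in the stem (−0.0418 in the mutant and 0.126 in Erb1-depleted cells).

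The second place was the long run. G3069 had normalized values of 0.734 in the mutant and 1.19 in Erb1-depleted cells, A3070 had 0.858 and 1.07, and U3071 had 0.733 and 0.822. Their standardized differences were −1.36, −1.34 and −1.08. All 3 were modified in both strains, so the difference was one of size and not of presence. These calls depended on the scale: on each strain's own normalization factor the values were −0.89, −0.90 and −0.63, and none of the 3 was called there, at equal SD, after quantile normalization or on normalized values with negatives at 0. On the last of these scales G3069 and A3070 had −1.33 and −1.34, about as reported, and U3071 had −0.93. After a running median was removed all 3 were called, at −1.76, −1.73 and −1.40. The SD of raw scores over the transcript was 0.124 in the mutant and 0.150 in Erb1-depleted cells.

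Away from these places, the lowest standardized differences at least 5 nucleotides apart were −1.39 at G3177 (normalized 0 in the mutant and 0.0573 in Erb1-depleted cells), −1.20 at A3006 (0.485 and 0.815) and −1.14 at A3183 (0.536 and 0.771). None of them was called as reported, and A3183 was called after a running median was removed. On some other scales modified nucleotides were called higher in the mutant, among them some at the 3' edge of the modified part. A3244 (normalized reactivity 0.681 in the mutant and 0.428 in Erb1-depleted cells) and A3245 (1.15 and 0.484) were called on each strain's own factor, at equal SD, after quantile normalization and on normalized values with negatives at 0. On the raw scale A3245 had a standardized difference of 0.75 and A3244 of 0.67, below the threshold. After a running median was removed neither was called. On that scale their neighbours G3241, G3242 and A3243 were called higher in Erb1-depleted cells, at −1.64, −2.09 and −1.62. As reported these had −0.05, −0.41 and −0.03. The window of the running median here took in much of the positive 3' stretch described next. Subtracting that median lowers values beside the stretch, so no difference at these nucleotides can be read from that scale.

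The third difference lay next to the end of coverage and went toward the mutant. From G3246, just after the last nucleotide modified in both strains, to U3300, the last one called, 51 of 55 nucleotides were measured in both. All 51 had a positive standardized difference, from 0.62 to 4.05, with a mean of 1.92, and 44 were called. This stretch was picked out by its calls, so these values are a description. Its mean raw score was 0.0302 in the mutant and −0.0938 in Erb1-depleted cells. In the mutant 15 of the 51 raw scores were below 0 and in Erb1-depleted cells 44. None of the 51 was modified in either strain.

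G3286 had the highest standardized difference of the whole transcript, 4.05, with raw scores of 0.0349 in the mutant and −0.228 in Erb1-depleted cells. Both its neighbours lacked a value in at least 1 strain, so its value was not smoothed. U3300 followed with 3.11 (raw scores 0.188 and −0.000894, normalized 0.982 and 0). G3343, the last nucleotide measured, had 3.00 (raw scores 0.0634 and −0.131) and was not called, since it stands alone. The value of G3343 was thus not smoothed either, and that of U3300 lacked 1 neighbour. With no smoothing over the whole transcript, G3286, U3300 and G3343 had 3.51, 2.52 and 2.60. C3235 and C3248 had 2.63 each, with raw scores of −0.118 and −0.270 at C3235 and 0.0191 and −0.199 at C3248. At C3235 both strains were at 0 on the normalized scale, so that a difference there lies between 2 values that the authors' normalization sets to 0.

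Large positive differences were frequent in domain VI. Of 160 nucleotides of the transcript with a standardized difference of at least 2, 29 lay in the domain. It held 307 of the 6541 nucleotides with a standardized difference. Of the 29, 23 lay between 3246 and 3300, a stretch picked out by its calls. Of the 133 at −2 or below, domain VI held 0. Nucleotides called higher in the mutant also lay upstream of the stretch, among them runs at 3222 to 3225 and, of 9 nucleotides, at 3232 to 3240. Between 3240 and the stretch G3241, G3242 and A3243 had −0.05, −0.41 and −0.03. From 2996 to 3245 the mean standardized difference was 0.11, with 139 positive and 111 negative. Coverage moved with this result, since the first missing value, at 3285, lies inside the stretch, and read numbers per nucleotide were not analysed here. The part of coverage in the difference was not tested. On normalized values with negatives at 0 the mean of the stretch was 1.02. After a running median of the difference was removed, the mean of the stretch was 0.34. The window of that median was longer than the stretch, which made up much of it. A fall toward 0 was thus built in, and no conclusion is drawn from the 0.34.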

How the data were processed

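Per the labels' protocols, cDNA of purified pre-rRNA was made with random hexamers. Novoalign, version not given in the sources used here, appears in the submitters' processing notes. Per the file headers, the authors deposited each score once per strain and nucleotide: SHAPE reactivity, raw and normalized, then BUM_HMM posteriors and deltaSHAPE output. Values marked there as lacking coverage were dropped. Regions of the deposited annotation were laid end to end by length, which sets 25S position = transcript position − 3251.

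The standardized difference and calls were recomputed over the whole transcript (threshold 1, smoothing over 3 nt, 3 of 5 nt, Z-factor above 0), with 0 calls differing from the authors' deposited calls. The calling rule was tested on simulated data. Folds were predicted with RNAfold 2.7.2 at 37 °C. Values were computed with Python 3.11.15 and pandas 2.3.3. Named nucleotides are the 14 of the sarcin-ricin loop core, the 10 most reactive modified ones per strain, every called modified one, the 5 extreme differences per direction at least 5 nt apart, and the 5 largest posterior gaps. Other nucleotides are named to spell out the lists modified in 1 strain, the printed sequences, the loop's stem and calls on other scales, and were chosen after their values were seen. Members and lists were chosen with earlier results of these data known, and the sequence windows, the tip and the stretch 3246 to 3300 after seeing these values.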

Additional observations from a re-analysis of the deposited data

How the results depend on the processing

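No paired analysis was possible because the sheet gives 1 value per nucleotide and strain, and for the same reason no replicate could be left out. The scales for the tip and the 3' stretch were added after seeing the data. The deposited Z-factor was used for calls on every scale and was not recomputed. Calls at modified nucleotides higher in the mutant (0) numbered 1 without smoothing, 3 with each strain scaled by its own factor, 10 on normalized values floored at 0, 4 with SDs made equal and 3 by quantiles. Those higher in the Erb1-depleted strain (5) numbered 0 at a threshold of 2, 10 without the window rule, 2 on each of these 4 scales and 20 after removal of a running median. Without the filter, the 71 higher in the mutant became 27 at a threshold of 2, 41 on floored values, 29 after removal of a running median and 34 without the last 50 measured nucleotides. The 9 higher in the Erb1-depleted strain became 0, 16 without the window rule, 5 on floored values and 37 after removal of a running median. The domain's mean standardized difference of 0.43 was 0.16 without the last 50 measured nucleotides and turned to −0.0087 after removal of a running median, which centres values locally and gave 305 of the 307. The window of that median was longer than the 3' stretch, so counts and means after its removal do not test a shift of that length. In raw scores, unpaired exceeded paired nucleotides by 0.0806 (mutant) and 0.126 (Erb1-depleted). Counts of modified nucleotides moved by less than 1.5 times at posteriors of 0.9 and 0.99. Of 83 standardized differences of single nucleotides under other settings, 0 changed direction. They cover only the called modified nucleotides and the 5 extremes per direction, which were chosen for large differences. The other named nucleotides were not run.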
